A study of Zea mays with 45 samples.

Results

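Confite and Mishca are the Andean maize landraces of a study of solar ultraviolet-B radiation (UV-B) in high-altitude maize. Their response to natural sunlight was read from 4 of the 45 deposited columns, chosen because their titles name Confite or Mishca leaves under or after solar UV-B. Only 3 of the 4 are distinct arrays. Both Confite columns hold the same values up to a constant of 0.165 (SD of the difference 2.2e-17) under opposite channel labels, so Confite has 1 array and Mishca has 2. Each array set leaf RNA of plants kept under cellulose acetate, which passes solar UV-B, against leaf RNA of the same landrace kept under polyester, which absorbs it. The plastics went over the outdoor plots about 14 days after sowing, 7 days after germination. The same comparison was made in W23 (labelled W23b,pl for its b and pl alleles) and in the Mexican landraces Arrocillo, Cacahuacintle and Conico, with 6 further distinct arrays, and these 9 arrays were fitted together.

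UV-B is the short-wavelength end of the sunlight that reaches the ground, and it damages DNA, proteins and the photosynthetic machinery. Plants sense it through the photoreceptor UVR8 and answer with flavonoid sunscreens, antioxidant enzymes and DNA repair, and part of the response runs through jasmonate and wounding pathways. Maize landraces of the high Andes grow under strong UV-B.

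The values are log2 ratios of the 2 RNAs on an array, with 3 spots per probe averaged and the median of each array set to 0. The labels do not say which RNA stands on top of the deposited ratio. Genes are therefore described by the positive or negative side of the deposited ratio. If every array has the same RNA on top, turning the sign would exchange the sides everywhere below. If the ratio instead follows the channel order, only arrays of 1 order would turn, among them the second Mishca array. Sides shared by all 3 arrays would then not hold, and the fitted Mishca value of opr6, described below, would move from 0.57 to -0.10. A 2-colour ratio gives no level of a gene. The labels do not say whether the Mishca arrays came from separate plants, so the spread behind the p-values may be technical. For Mishca as for Confite, that spread was pooled over the W23, Mishca and Conico arrays, with 2 residual degrees of freedom. A term for the channel order first took up the difference between arrays of opposite order that these lines share. A small p-value can therefore go with Mishca arrays that disagree. The Confite array, coded as neither order, kept any such difference in its value, and so in part did the mean of both landraces. The cDNA probes can also bind close family members.

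The arrays differed in quality. Before centring, the median log2 ratio was 0.14 on the Confite array, -0.19 on the first Mishca array and 0.14 on the second. Confite spread most, with an SD over spots of 0.36, against 0.27 and 0.28. Blank spots were 15.6%, 11.0% and 4.3% of the total. The position of a spot among 16 sections of the spot list accounted for 18.6% of the variance on the Confite array, 54.8% on the first Mishca array and 32.1% on the second. Mesophyll genes (pdk1, Cab-m7, lhcb5) and bundle sheath genes (ssu1, rca1) gave values on all 3 arrays, as did probes of the seed globulins and of pollen genes.

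The Mishca arrays, which carry opposite channel orders, resembled each other less than Mishca's first array resembled Confite. Over 4923 probes Pearson's r between Confite and the first Mishca array was 0.58. Between Confite and the second Mishca array it was -0.23 over 4955 probes, and between both Mishca arrays -0.24 over 5161. With each section centred these values became 0.54, -0.05 and 0.16. The second Mishca array was closest to the second W23 array, of the same channel order, with an r of 0.70 over 5415 probes. The first Mishca array was closest to the first Conico array, also of its channel order (0.64 over 5158 probes). Confite was closest to the Cacahuacintle array (0.64 over 4835 probes). With each section centred these values became 0.66, 0.30 and 0.58. Probes on 1 array share its hybridisation, spot layout and dyes, so these correlations describe the arrays and carry no test.

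**Figure D1:**
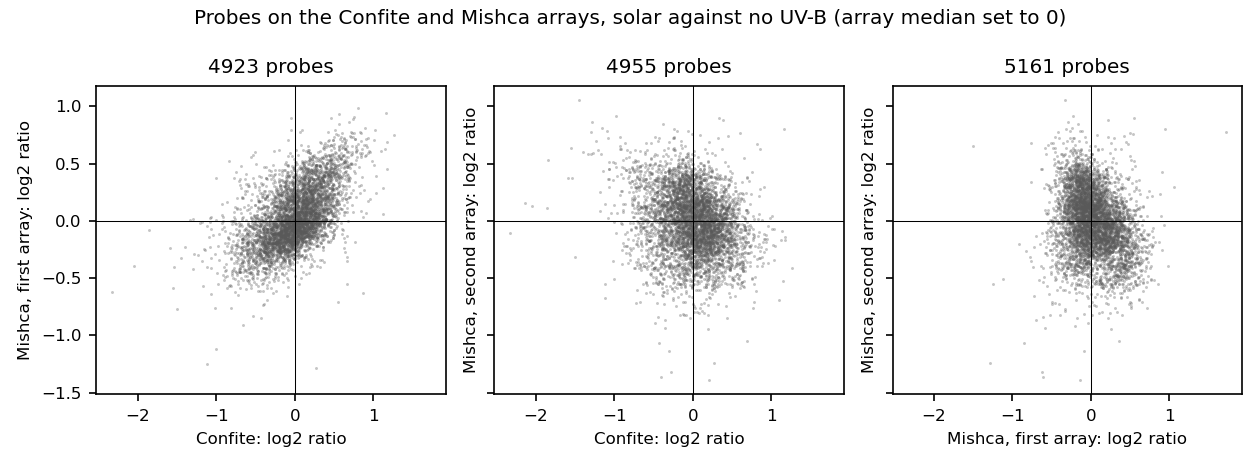
Each point is a probe, placed by its centred log2 ratio on 2 arrays, for Confite against each Mishca array and for the Mishca arrays against each other. Confite and the first Mishca array run together (r = 0.58), and the second Mishca array leans against both (r = -0.23 and -0.24).

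The first question was which genes lie on the same side in both landraces. Of 4237 tested probes measured on all 3 arrays, 546 (12.9%) were positive on every array and 555 (13.1%) negative. Unrelated signs on 3 arrays would give shares close to these, so the counts alone do not show a shared response. Of the 284 named genes tested, 50 were positive on all 3 arrays and 27 negative. With each section centred, 781 of the 4237 probes were positive on every array and 806 negative. In a model with a coefficient for each line and a term for the channel order, 173 of 4239 probes (4.08%) passed for the mean of Confite and Mishca at an adjusted p under 0.05 (limma, Benjamini-Hochberg), 106 positive (2.5%) and 67 negative (1.58%). The named genes gave 11 of 284, near that background, with 8 on the positive side (LOC100125656, GST39, opr6, tua4, grf1, PDIL1-2, rpl29 and PER1) and 3 on the negative (ypt1, globulin-1 and ACC1). A call for the mean did not require a shared side. Of the 173 probes, the first Mishca array lay on the side of Confite for 168, the second for 83 and both for 82. Turned to the side of Confite, their median was 0.44 on the first Mishca array and -0.01 on the second. No probe passed without either Mishca array, without centring, without a channel term, with the replicate number as a block in its place (0 calls), with signs turned by the labelled channel order, or with the repeated columns given the order of their second label. With the order of their first label 859 passed. Without the first or the second W23 array 1934 and 1838 probes passed, and without either Conico array 101, which dropped grf1, PDIL1-2, rpl29, PER1 and ACC1. The calls were unevenly placed along the spot list. Of its 8 equal runs the second held 56 positive and 2 negative calls, the fifth 2 and 14, and the seventh 0 and 23. LOC100125656, GST39, tua4 and PDIL1-2 lay in the second run, and ypt1, globulin-1 and rpl29 in the fifth. With each of the 16 sections centred, 136 of the 173 were still called with the same sign. In whole leaves a change in the share of a cell type and a change of RNA per cell cannot be told apart.

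LOC100125656, for which the annotation gives no function, had the largest log2 ratio for the mean among named genes on the positive side. It was 1.16 in Confite and 0.94 and 0.80 on the Mishca arrays. The 3 arrays were alike, and the mean was 1.02 (SE 0.12), a 2.02-fold ratio, with an adjusted p of 0.0426. All 6 arrays of the other lines were positive as well, from 0.19 to 1.42, and the mean of the pair minus the mean of the others was 0.27 (adjusted p = 0.664).

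Genes of detoxification and peroxide removal come next by role. GST39, a glutathione S-transferase of the family that joins glutathione to reactive compounds, read 0.75 in Confite and 0.91 and 0.43 in Mishca. All arrays were positive, and the mean was 0.71 (SE 0.08, adjusted p = 0.0426). In the other lines GST39 was positive on 3 arrays and negative on 3, from -0.71 to 0.39, but the difference of 0.82 between the pair and these lines did not pass (adjusted p = 0.260). With sections centred the mean of GST39 was 0.48 and its adjusted p 0.0501.

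PER1, also grouped with the antioxidants, read 0.32 in Confite and 0.30 and 0.72 in Mishca. The second Mishca array stood above the other 2, and the mean was 0.41 (SE 0.07, adjusted p = 0.0458). Of the 13 antioxidant and detoxification genes tested, 2 passed for the mean (4.08% of all probes did), 5 were positive and 1 negative on all 3 arrays (12.9% and 13.1% of all probes), and the median of the list was 0.13. Sod4A, a copper/zinc superoxide dismutase, read 0.20, 0.41 and 0.11, with a mean of 0.23 that did not pass (adjusted p = 0.122) but did with sections centred (0.26, adjusted p = 0.0442). The negative member was fer1, a ferritin that stores iron, at -0.29, -0.22 and -0.08 (adjusted p for the mean 0.0884).

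The jasmonate and defence genes held 1 call for the mean among 9 genes tested (4.08% of all probes passed). It was opr6, an oxophytodienoate reductase of the family that includes the jasmonate-forming enzymes. opr6 read 0.81 in Confite and 0.47 and 0.67 in Mishca. Every array was positive, and the mean was 0.69 (SE 0.12), a 1.62-fold ratio (adjusted p = 0.0458). The other lines were positive too, from 0.09 to 1.01. Its pathway neighbour aos1, allene oxide synthase, was positive in Confite (0.67) and on the first Mishca array (0.51) and negative on the second (-0.40), and so was the thaumatin-like gene pr5, at 0.90, 0.67 and -0.16. The mean of pr5 was 0.58 with an adjusted p of 0.0509 (with sections centred 0.35, adjusted p = 0.0472, and 0.13 on the second Mishca array), and that of aos1 was 0.36 (adjusted p = 0.116). The list's median was 0.39 in Confite, 0.19 on the first Mishca array and -0.13 on the second, against 0.02, 0.01 and -0.02 over all tested probes. With sections centred it was 0.29, 0.06 and -0.14.

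**Figure D2:**
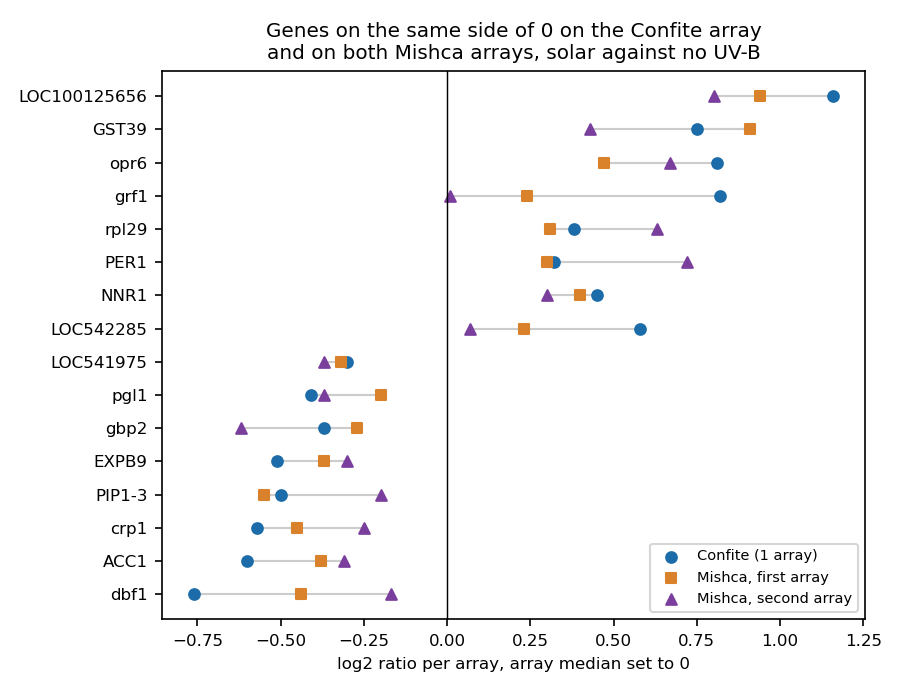
Centred log2 ratios on the Confite array and on both Mishca arrays for the 8 named genes per side with the largest log2 ratio of the mean among genes on 1 side of 0 on all 3 arrays; the line joins the lowest and highest array. LOC100125656 lies farthest to the positive side (0.80 to 1.16) and dbf1 farthest to the negative side (-0.76 to -0.17), and 7 of the 16 genes passed for the mean.

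Translation and signalling gave 1 call each among 13 genes tested (4.08% of all probes passed for the mean). rpl29, a protein of the large ribosomal subunit, read 0.38, 0.31 and 0.63, and its mean was 0.42 (SE 0.06, adjusted p = 0.0426). The second Mishca array was again the highest. grf1, a 14-3-3 protein that binds phosphorylated partners, read 0.82 in Confite but 0.24 and 0.01 in Mishca. Confite thus stood well above both Mishca arrays under the call for the mean (0.48, SE 0.09, adjusted p = 0.0487). For signalling 12 of 13 genes and for translation 10 of 13 had a positive mean, with list medians of 0.14 and 0.12, against 164 of all 284 named genes and a median of 0.04.

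Not every call meant agreement of the arrays. tua4, an alpha-tubulin, read 0.83, 0.78 and -0.23, and PDIL1-2, a disulfide isomerase that folds secreted proteins, 0.78, 0.53 and -0.31. In both the second Mishca array lay on the other side of 0, but with sections centred its value was 0.06 for tua4 and -0.02 for PDIL1-2. The means were 0.55 for tua4 and 0.44 for PDIL1-2 (adjusted p = 0.0426 for each), and with sections centred 0.32 (adjusted p = 0.0399) and 0.21 (adjusted p = 0.163). A different probe of PDIL1-2 read 0.33, 0.34 and -0.43, and its mean of 0.14 did not pass (limma adjusted p = 0.357). The other 2 tested cytoskeletal genes, prf5 (a profilin) and adf2 (an actin-depolymerising factor), had the same pattern of signs as tua4. For prf5 it did not hold with sections centred (-0.01, 0.11 and 0.07).

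On the negative side only ACC1 was both called and negative on every array. ACC1 read -0.60 in Confite and -0.38 and -0.31 in Mishca, with a mean of -0.47 (SE 0.08, adjusted p = 0.0439). A different probe of ACC1 read 0.21, 0.11 and -0.02, so its probes disagree. dbf1, a transcription factor of the dehydration-responsive element-binding kind, read -0.76, -0.44 and -0.17. Its mean of -0.53 did not pass (SE 0.15, adjusted p = 0.0816). The aquaporin PIP1-3 (-0.50, -0.55 and -0.20), crp1, which processes chloroplast transcripts (-0.57, -0.45 and -0.25), and the beta-expansin EXPB9, a pollen gene (-0.51, -0.37 and -0.30), were negative on all 3 arrays, with adjusted p for the mean between 0.0631 and 0.0708. With sections centred crp1 passed (-0.55, adjusted p = 0.0413). A second EXPB9 probe read -0.18, -0.14 and 0.09, and a further one, measured on the second Mishca array only, 0.44. Over the 6 arrays of the other lines PIP1-3 ranged from -1.49 to 0.35, crp1 from -1.30 to 0.09 and EXPB9 from -1.21 to 0.08.

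Among the 7 light-reaction genes tested, 5 were positive in Confite, 7 on the first Mishca array and 1 on the second. Over all 4239 tested probes 2230, 2193 and 1991 were positive on these arrays. psbs1, which encodes the PsbS protein that sheds excess light as heat, read 0.57, 0.93 and -0.04. Cab-m7, a light-harvesting protein of mesophyll cells, read 0.60, 0.70 and -0.41, and lhcb5, a minor antenna protein, 0.51, 0.38 and -0.30. All 3 genes were positive on the first 2 arrays and negative on the third, an order of signs that centring each section changed for psbs1 (0.46, 0.54 and 0.26), while lhcb5 came to -0.01 and 0.00 on the Mishca arrays. None of the 7 genes passed for the mean (list median 0.26), against 4.08% of all probes, and psbs1 came nearest at 0.51 (SE 0.12, adjusted p = 0.0586). With sections centred psbs1 passed at 0.43 (adjusted p = 0.0339), and the list's medians were 0.22, 0.17 and 0.01 on the 3 arrays in place of 0.46, 0.23 and -0.10. Among 13 genes of carbon fixation none passed, and ssu1, the small subunit of Rubisco, read 0.02, 0.22 and -0.18.

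**Figure D3:**
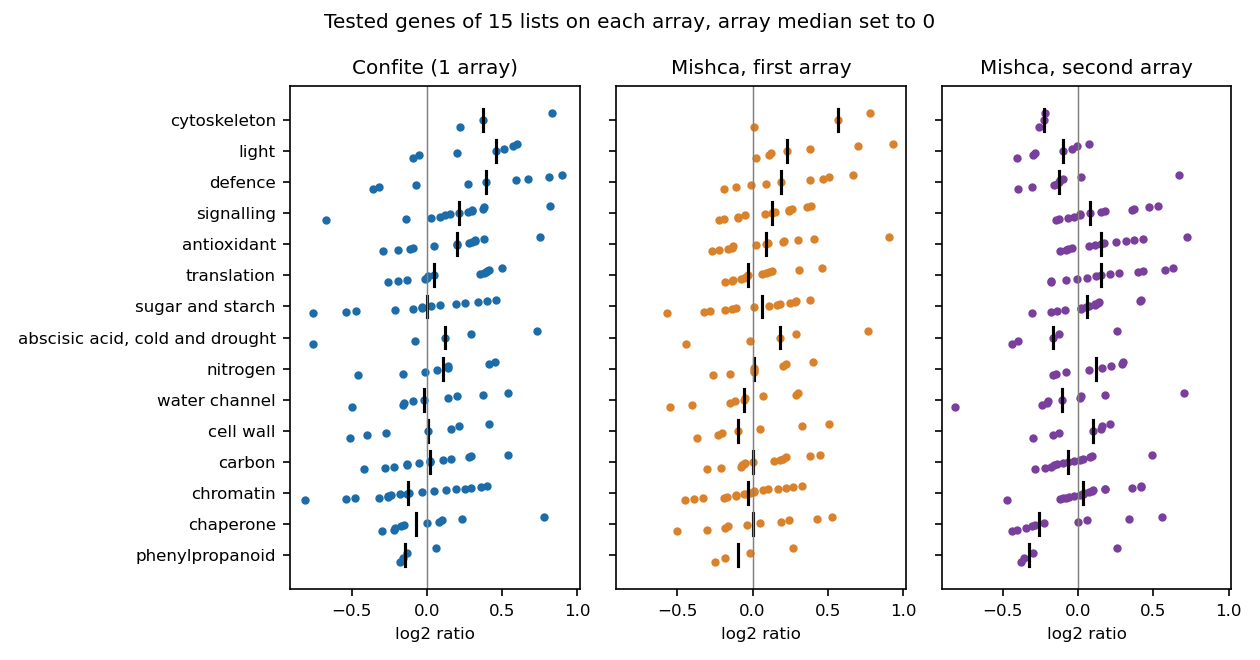
Each point is a tested gene, by its centred log2 ratio, in 15 gene lists on the Confite array and on both Mishca arrays; black bars are list medians. The light-reaction median is 0.46 on the Confite array, 0.23 on the first Mishca array and -0.10 on the second, while the antioxidant median is positive on all 3 (0.20, 0.09 and 0.15; with sections centred 0.23, 0.00 and 0.17).

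Phenylpropanoid genes, which supply lignin and UV-absorbing phenolics, were thinly covered. For the mean 0 of 4 tested genes passed, against 4.08% of all probes, so so few genes say little about the pathway. PAL1, phenylalanine ammonia-lyase at the entry of the pathway, was on the negative side throughout, at -0.18, -0.25 and -0.38. Its mean was -0.25 (SE 0.09, adjusted p = 0.128). CCR, cinnamoyl-CoA reductase of lignin synthesis, was also negative on all 3 arrays (-0.16, -0.02 and -0.30), with a mean of -0.16 (adjusted p = 0.215). With sections centred CCR read -0.36, -0.30 and -0.25 and its mean passed (-0.32, adjusted p = 0.0409), while the mean of PAL1 moved to -0.13 (adjusted p = 0.281).

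Chromatin genes were a large list on the array, and 0 of 18 passed for the mean (4.08% of all probes did). The list median of the mean was -0.05. nfa104, a nucleosome assembly protein, read -0.48, -0.45 and 0.03, and nfc102, a chromatin assembly factor subunit, -0.32, -0.39 and 0.10. Confite and the first Mishca array were close in size for both, and the second Mishca array was slightly above 0. The means were -0.35 (adjusted p = 0.0569) and -0.23 (adjusted p = 0.0800). With sections centred nfa104 was negative on all 3 arrays (-0.35, -0.38 and -0.26) and its mean passed (-0.34, adjusted p = 0.0375), and nfc102 read -0.18, -0.24 and -0.04 and did not pass (adjusted p = 0.105). hac106, a histone acetyltransferase, lay on the other side, at 0.40, 0.27 and -0.03, and mbd113, a methyl-CpG-binding protein, read -0.26, -0.11 and 0.01.

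Of genes linked to abscisic acid and drought, 0 of 5 passed for the mean (4.08% of all probes did). asr1, an abscisic acid, stress and ripening gene, read 0.73 in Confite and 0.77 and -0.40 in Mishca, so the Mishca arrays stood on opposite sides. The aquaporin pip1-2 read 0.37, 0.07 and 0.01. In nitrogen assimilation NNR1, a nitrate reductase, was even across the arrays (0.45, 0.40 and 0.30), yet its mean of 0.40 had an SE of 0.13 and an adjusted p of 0.105.

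Taken alone, Confite gave 281 called probes of 4239 (6.63%), 129 positive (3.04%) and 152 negative (3.59%). This landrace has 1 distinct array, so its test borrows the spread of the other lines, and the count depends on the channel order given to that array, here coded as neither. With the order of the first label 1102 probes passed and with that of the second 0. The count was also 0 without centring, without a channel term, with the replicate number as a block and with ratios following the channel order. The named genes gave 13 of 284. Positive were LOC100125656, tua4, grf1, PDIL1-2, GST39 and vpp3, and negative were ypt1, globulin-1, sgb102, phi1, pglcat8, hk3 and glct1. Without the first or the second W23 array the count was 1942 and 1833, and without either Conico array 113, which dropped GST39, vpp3, hk3, glct1 and pglcat8. Without the first or the second Mishca array it was 145 and 147, and all of these but GST39 were lost. Of the 281 probes, the first Mishca array lay on the same side as Confite for 254 and the second for 58. Over 4237 probes these shares were 70.8% and 42.3%. The calls were made on the Confite values themselves, so the comparison is a description. Called probes were unevenly placed among the 8 runs of the spot list: 67 positive calls and 3 negative ones fell in the second run, 1 and 46 in the fifth, and 0 and 43 in the seventh. Most called named genes lay in these runs. LOC100125656, tua4, PDIL1-2, GST39 and vpp3 were in the second, ypt1, globulin-1, pglcat8, hk3 and glct1 in the fifth, and sgb102 in the seventh. Only grf1, in the first run, and phi1, in the third, were elsewhere. The part of spot position in their values was not tested. With sections centred, 221 of the 281 were still called with the same sign.

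The largest named value in Confite was that of ypt1, a small GTPase of the kind that directs vesicle traffic, at -1.40 (SE 0.17, adjusted p = 0.0399), a 2.63-fold ratio. In Mishca ypt1 read -0.23 and 0.60. globulin-1, a seed storage protein, read -0.90 in Confite (SE 0.12, adjusted p = 0.0399) and -0.41 and 0.26 in Mishca, and the other globulin-1 probe read -0.11, -0.02 and -0.18. Probes of the related seed gene Globulin-2 read -0.31 and -0.62 in Confite, and the part of seed transcripts in these values was not tested. phi1, a phosphohexose isomerase of sugar metabolism, read -0.76, with -0.28 and 0.14 in Mishca. ltk1, a receptor-like kinase, read 1.04 in Confite, short of a call (adjusted p = 0.0516; 0.99 and 0.0377 with sections centred), and 0.39 and -0.22 in Mishca. hk3, a histidine kinase of the cytokinin receptor kind, read -0.67, but its spots on that array had an SD of 0.369.

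Mishca gave 1 called probe of 4239 (0.0236%) and no named gene of 284. At an unadjusted p under 0.05 there were 562 probes. The count was 881 and 805 without the first and second W23 array, 6 without either Conico array, and 0 without either Mishca array. The smallest adjusted p among the named genes described here was that of the thiamine synthesis gene thi2, at 0.125. thi2 read -0.13 and -1.39 on the Mishca arrays and 0.20 in Confite, so the second Mishca array stood far below both other arrays. With sections centred thi2 read -0.18 in Confite and -0.59 and -1.10 in Mishca, and its fitted value in Confite ran from 0.83 with the first label order to -0.42 with the second. The other thi2 probes read -0.16, -0.41 and -0.17, and 0.06, 0.23 and -0.23, on the Confite, first and second Mishca arrays. NIP2-3, an aquaporin of the silicon transporter type, was negative on both Mishca arrays (-0.40 and -0.82) and 0.20 in Confite.

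The called probe, singled out after its values were seen, has no gene name here and lies at spots 11484 to 11486 of the list. It read -1.28 and -1.24 on the Mishca arrays, with SDs of 0.109 and 0.004 over its spots. Every other line was on the positive side. Confite read 0.27, W23 0.32 and 0.29, Arrocillo 0.78, Cacahuacintle 0.93 and Conico 1.32 and 1.21. The fitted value in Mishca was -1.26 (SE 0.08), with an adjusted p of 0.0174. The Mishca arrays have opposite channel orders but gave the same sign. If the ratios follow the channel order, the values cancel to -0.02 (adjusted p = 0.998). Without the first or the second Mishca array the probe was not called (adjusted p = 0.173 and 0.171).

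**Figure D4:**
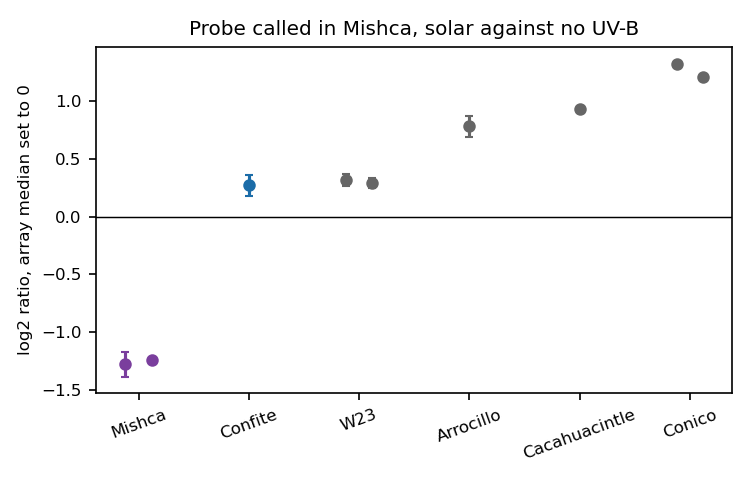
Centred log2 ratio of the unnamed probe at spots 11484 to 11486 on the 9 distinct arrays of solar against no UV-B, by line; bars are the SD over its spots. Both Mishca arrays lie near -1.26 and the 7 other arrays between 0.27 and 1.32.

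Confite and Mishca were then compared with each other. No probe of 4239 passed (0.0%) in limma, and 847 had an unadjusted p under 0.05. The count was 1319 and 1229 without the first and second W23 array, 25 without either Conico array and 10 without the first Mishca array. The widest difference among named genes was that of ypt1, Confite minus Mishca -1.58 (SE 0.21, adjusted p = 0.0936). The difference was 0.96 for thi2 (adjusted p = 0.0936) and 0.81 for NIP2-3 (adjusted p = 0.0979), both higher in Confite. It was -0.82 for globulin-1 and -0.88 for hk3, with an adjusted p of 0.0979 for each. Differences of this size did not pass in the fit of all 9 arrays, of which 3 are from Confite and Mishca. That does not show that the landraces act alike. The count with only these 3 arrays, given in the last section, was different. It came from a fit without a channel term over 4921 probes, so more than the choice of arrays differs.

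The mean of the pair was also set against the mean of the other 4 lines. A single probe passed of 4239 (0.0236%), the unnamed one above, at -1.32 (adjusted p = 0.0190), and 380 had an unadjusted p under 0.05. Without the first and second W23 array 472 and 288 passed. For opr6 the difference was 0.07 (adjusted p = 0.942), for psbs1 -0.06 (adjusted p = 0.942) and for PER1 0.24 (adjusted p = 0.538). With all 9 arrays no difference between the Andean pair and the other lines passed for a named gene.

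Supplemental UV-B from lamps was set against solar UV-B in the same landraces, on 2 distinct arrays for Confite and 1 for Mishca. The comparisons share the solar treatment, so the values are placed side by side and not related. opr6 read -0.28 and 0.17 in Confite and 0.86 in Mishca. GST39 read -0.18 and 0.58 in Confite and 0.77 in Mishca, and PER1 read 0.16 and -0.65 in Confite and -0.91 in Mishca. The Confite arrays, of opposite channel orders, stood on different sides of 0 for all 3 genes. The unnamed probe read 0.70 on both Confite arrays and 1.60 in Mishca.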

How the data were processed

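Leaf RNA was measured on 2-colour spotted cDNA arrays. The authors deposited 1 log2 ratio per spot, in a table of 33 columns. The sources used here do not give the numerator or the channel scaling; the series' design text describes analysis of variance models on log2 intensities. Probes (5640, of 3 spots each) were averaged over their spots and arrays centred on their medians. A probe was tested if 75% of the distinct solar arrays, with 1 or more from every line, measured it. Linear models (limma 3.58.1, R 4.3.3) held a coefficient for each of the lines over 9 distinct arrays and a channel term, coded 0 for columns deposited under both orders. Tests were two-sided. A W23 column equal to the mean of the others (SD of the difference 0.0323) was left out. Names came from the old platform annotation (399 probes with 1 gene, 2 with several, 5239 unnamed). Genes named are, per side, the 8 largest for the mean with 1 sign on all arrays and the 5 largest per landrace and difference, up to 3 per list, and 14 whatever their values; further called genes and list members are examples. Members and 15 lists were chosen with earlier results of these data known. The model was tested on simulated data with independent noise of a common SD and no effects of channel or section. That test therefore does not bear on how the calls depend on those effects or on centring. The number of arrays limits precision.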

Additional observations from a re-analysis of the deposited data

Results flagged for a closer look

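One result met a rule for a closer look. For the unnamed probe at spots 11484 to 11486, the mean of Confite and Mishca differed from the mean of the other lines by -1.32 (SE 0.08, limma adjusted p = 0.0190), because the response of the pair and that of the other lines differ by a test of the difference itself. Both Mishca arrays were negative and Confite, at 0.27, was positive like the 6 arrays of the other lines. Those arrays ran from 0.29 to 1.32, so Confite lay below each of them. The difference comes mostly, but not wholly, from Mishca. It was not called without centring (-1.35, adjusted p = 0.129), without a channel term (-1.32, adjusted p = 0.0636) or with ratios following the channel order (-0.32, adjusted p = 1.0).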

How the results depend on the processing

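Counts of called probes depended strongly on the settings; they are given in the order Confite, Mishca, mean of both, Confite minus Mishca, and pair minus other lines, against 281, 1, 173, 0 and 1. Without centring they were 0, 0, 0, 0 and 0, and the same with ratios following the channel order, with sections centred or not. Without a channel term they were 0, 0, 0, 0 and 0. Centring each section gave 506, 2, 407, 0 and 1, and with no channel term in addition 0, 2, 0, 0 and 1. Scaling arrays to equal spread gave 127, 8, 379, 1 and 2. Giving repeated columns the order of their first label gave 1102, 1, 859, 468 and 1, and of their second 0, 1, 0, 0 and 1. Counting repeated columns as arrays gave 1534, 21, 1154, 333 and 54, and keeping the third W23 column 769, 42, 778, 173 and 8. Only probes on all arrays gave 211, 1, 129, 0 and 1, and only the Confite and Mishca arrays 32, 6, 19 and 18. The replicate number as a block, in place of the channel term, gave 0, 1, 0, 0 and 1. In W23, Mishca and Conico replicate number and channel order coincide and cannot be told apart. The block therefore differs from the channel term only in the code of the lines with 1 distinct array. The labels do not say that a number marks a shared plot or day. The fit of only the Confite and Mishca arrays had no channel term and covered 4921 probes. It had 1 residual degree of freedom and used 1 spread for all probes. Leaving out 1 array gave 113 to 1942 for Confite, 0 to 881 for Mishca, 0 to 1934 for the mean, 0 to 1319 for the difference and 1 to 472 for the pair against the others. The highest counts all came without the first W23 array. The cause was not tested. No called named gene changed sign under any of these settings. For Confite this was largely fixed beforehand, because its fitted value rests on 1 array, whose ratios no setting turned. The mean contains that same value, so the constant signs are no test of the calls. With sections centred, 9 of the 13 genes called in Confite and 9 of the 11 called for the mean were called. Centring sections with no channel term or with the channel order was added after seeing the data. Promoter motifs were not examined.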
